A study of Homo sapiens with 4 samples.

Results

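The genes described here encode the subunits of the proteasome, its activators, its inhibitor and its assembly chaperones. They were chosen by name, as every row of the expression table whose symbol is PSMA, PSMB, PSMC, PSMD, PSME, PSMF or PSMG followed by a number, without the immunoproteasome genes *PSMB8*, *PSMB9* and *PSMB10*. This gave 45 of 51136 rows. By name, 16 were counted with the core particle (PSMA and PSMB, 8 each) and 20 with the regulatory particle (6 PSMC and 14 PSMD). The remaining 9 were 4 PSME, 1 PSMF and 4 PSMG genes. The study transfected cells labelled as the human lung cancer line A549, established from a lung adenocarcinoma, with small interfering RNA and sequenced their RNA with an mRNA library kit. The si-DLX6 group (2 libraries, genotype label DLX6 knockdown) received RNA against *DLX6*, a homeobox transcription factor gene, and the si-control group (2 libraries, genotype label WT) received the control RNA. Both groups were kept in DMEM with 10% serum, and the labels of all 4 samples also carry a treatment entry naming adipogenic differentiation, which the protocols do not describe. The labels do not say whether the replicates of a group came from separate cultures. A p-value here therefore sets a group difference only against the spread between replicate libraries, and that spread may be technical.

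Library totals recovered from the values were 10485013 and 10665357 reads for si-DLX6 and 12075285 and 9678221 reads for si-control. The targeted gene had 0.916 and 0.450 FPKM in si-DLX6, against 3.27 and 3.47 FPKM in si-control, which rested on 18 and 9 reads against 74 and 63. *DLX6* (GRCh38 chromosome 7, 97005548 to 97011039, plus strand) was therefore lower in both si-DLX6 libraries, with a log2 difference of -1.39 ± 0.20 (SE) and an adjusted p of 0.00859 (limma; 0.0667 without the filter on low values). Adding 1 FPKM shrinks the difference of so low a gene: it was -2.21 with a pseudocount of 0.1 and -2.41 with limma-voom on the recovered reads. The epithelial keratin gene *KRT18* was high in all libraries, with 464 and 422 FPKM in si-DLX6 and 475 and 447 FPKM in si-control. Of the other epithelial and A549 markers, *KRT8* had 110.5 and 100.1 FPKM in si-DLX6, against 137.5 and 122.9 FPKM in si-control. *KRT19*, *EPCAM*, *CDH1*, *AKR1B10* and *NAPSA* were under 0.5 FPKM in every library. *AKR1C1* was also low, with 1.107 and 1.496 FPKM in si-DLX6, against 0.2402 and 0.5245 FPKM in si-control. Its log2 difference was 0.738 (adjusted p 0.0488, limma), resting on 16 and 22 reads against 4 and 7. Most markers of this list therefore do not bear out the labelled cell line. The list of 8 summed to 577 and 524 FPKM in si-DLX6, against 614 and 571 FPKM in si-control, nearly all of it *KRT18* and *KRT8*. Among 7 adipocyte markers, *ADIPOQ*, *LEP* and *LPL* were at 0 in all libraries, and the list summed to 2.06 and 2.13 FPKM in si-DLX6, against 1.15 and 1.57 FPKM in si-control. The summed markers of fibroblasts, leukocytes and endothelial cells stayed under 1 FPKM in each library, with *LUM*, *PTPRC*, *CD3E* and *CDH5* at 0 in all. Fibroblast markers summed to 0.759 and 0.773 FPKM in si-DLX6, against 0.283 and 0.343 FPKM in si-control. The part of these levels in the results was not tested. In bulk RNA, fewer cells of a type and less RNA per cell cannot be told apart.

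The proteasome degrades proteins tagged with ubiquitin in the cytosol and nucleus. Its core particle is a barrel in which rings of alpha subunits (PSMA) gate the entrance and rings of beta subunits (PSMB) hold the proteolytic sites. The regulatory particle caps the barrel: its ATPases (PSMC) unfold the substrate and thread it into the core, and its non-ATPase subunits (PSMD) recognise the ubiquitin chain, remove it and hold the cap together. Alternative caps are encoded by PSME genes, and PSMG proteins guide the assembly of the core. In human cells the transcription factor NFE2L1, and in part NFE2L2, raise proteasome gene transcription through antioxidant response elements when the proteasome is inhibited or the cell is under oxidative stress.

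Because these factors act at promoters, the promoter windows of the members in RefSeq (GRCh38.p14, 250 bases before to 50 after the start site) were searched for the core of this element. The letters TGACNNNGC, on either strand, occurred in 14 of the 39 members with a window (35.9%), against 16.1% of 27305 genes with a window of the same kind. A gene was counted where any of its windows had the letters, so genes with more windows had more chances to match. Of all 35116 windows, 13.3% had the letters. The genes were not matched to the members in level or in number of windows. Of the core particle genes 2 of 12 had the letters, and of the regulatory particle genes 7 of 19. *PSMA7*, *PSMB1*, *PSMB6*, *PSMB7*, *PSMD4* and *PSMG3* had no window and were not searched. The following stretches are shown 5′ to 3′ on the strand of the match, with the matched letters in capitals, for *PSMD3* and *PSMG1*, the members with the letters whose level changed, and for the core particle genes *PSMA4* and *PSMB3*.
PSMD3, chr17:39980760-39980788, plus strand: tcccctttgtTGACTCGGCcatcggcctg
PSMD3, chr17:39980830-39980856, minus strand: ccgcacgaTGACGGAGCagctgcaaac
PSMG1, chr21:39183616-39183644, minus strand: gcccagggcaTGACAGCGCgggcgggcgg
PSMA4, chr15:78540650-78540678, plus strand: gtgggcacgaTGACTCTGCaccgcctcct
PSMB3, chr17:38752627-38752655, plus strand: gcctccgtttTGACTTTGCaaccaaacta
Positions along the strand of the gene are relative to the RefSeq start site of each window. The *PSMD3* matches begin at -37 and 33, the *PSMG1* match at -183, the *PSMA4* match at -126 and the *PSMB3* match at -104. In GENCODE, *PSMG1* and *PSMA4* begin upstream of these RefSeq start sites, so their matches lie inside the GENCODE spans of the genes. The CCAAT box bound by NF-Y (letters CCAAT, either strand) occurred in 19 of 39 members (48.7%), against 39.7% of all genes with a window. A match describes the letters only and is not a bound site. Among the tested members, the median log2 difference was -0.05 for the 14 with the TGACNNNGC letters and -0.10 for the 23 without them.

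Most proteasome transcripts differed little between si-DLX6 and si-control, and the largest single change was the fall of *PSMD11*, a subunit of the lid of the regulatory particle, to 52.3% of its si-control mean. Of the 43 members tested, 7 (16.3%) passed an adjusted p of 0.05 in limma's test over all 15504 genes, where 19.6% of genes passed. The 1 member that rose was *PSMC1*, an ATPase (10.2% of all genes rose), and the 6 that fell were *PSMB7*, *PSMD11*, *PSMD3*, *PSME3*, *PSMF1* and *PSMG1* (9.49% of all genes fell). By class, 0 rose and 1 fell of 14 core particle genes, 1 rose and 2 fell of 20 regulatory particle genes, and 0 rose and 3 fell of the 9 activator, inhibitor and chaperone genes. Over both directions the share of members lies near that of the whole table, while by direction it was 2.33% against 10.2% for rises and 13.95% against 9.49% for falls. With so few members called these shares are a description of the list, which was not tested. Log2 differences are given as si-DLX6 minus si-control of log2(FPKM + 1), a scale that understates changes, strongly at a few FPKM or less.

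The median log2 difference of the members was -0.10, against 0.045 over all genes tested, and the members ran from -0.88 to 0.52. It was -0.13 for core particle genes, -0.04 for regulatory particle genes and -0.17 for the others. By gene class the medians were -0.16 for PSMA, -0.01 for PSMB, 0.10 for PSMC, -0.10 for PSMD, -0.10 for PSME and -0.23 for PSMG. The difference was negative in 28 members and positive in 15. Both si-DLX6 libraries lay below both si-control libraries in 20 members (46.5%, against 27.9% of all genes) and above them in 9 (20.9%, against 35.1%), and the groups overlapped in 14. On the log2(FPKM + 1) scale all but *PSMD11* had an estimated change smaller than 1.5-fold (42 of 43, or 97.7%, against 82.3% of all genes), although *PSMF1* and *PSMG1* came to -0.64 each on the log2 scale with limma-voom, which is past that fold. The 95% interval of the difference stayed within 1.5-fold either way for 32 of 43 members, or 74.4%, against 37.2% of all genes. The members were more abundant than most genes, with a median mean level of 83.8 FPKM, against 6.94 FPKM over all genes tested. The part of this level in these shares was not tested. Each tested member had at least 234 reads in every library, and the median gap between replicates was 0.116 in si-DLX6 and 0.092 in si-control on the log2 scale, against 0.17 and 0.16 over all genes.

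**Figure D1:**
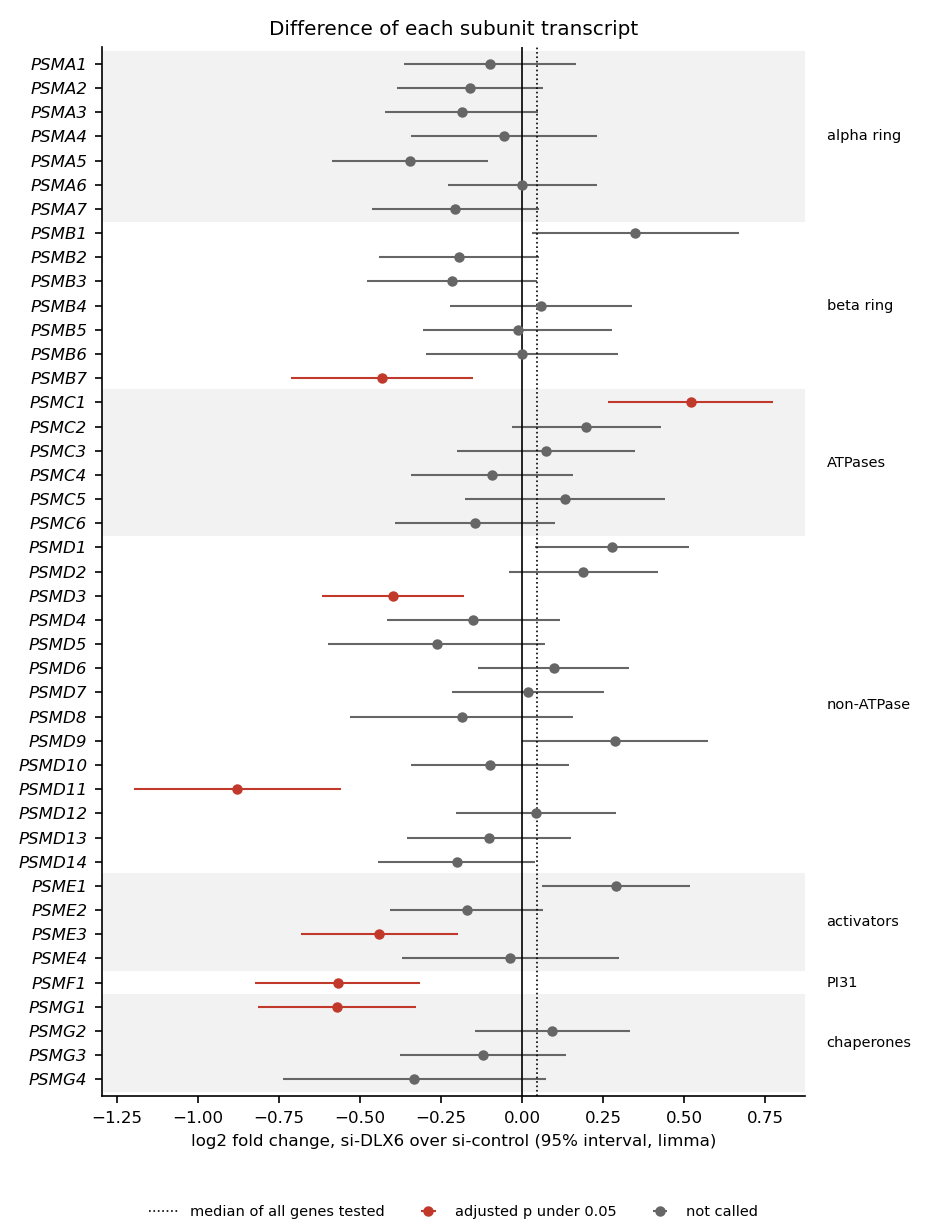
Log2 differences (si-DLX6 minus si-control, log2(FPKM + 1) scale) of the 43 tested proteasome genes, grouped by class, with 95% intervals from limma and the median of all genes tested as a dotted line. Red points mark the 7 that passed an adjusted p of 0.05; *PSMD11* lies lowest at -0.88 and *PSMC1* highest at 0.52.

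The levels of the members, per length, spanned a wide range within each library. Averaged over the 4 libraries, *PSMB1* was highest at 723 FPKM, followed by *PSMD8* at 581 FPKM, and *PSME4* was lowest at 11.4 FPKM, followed by *PSMD11* at 15.7 FPKM. The class medians of mean FPKM were 98.3 for PSMA, 338 for PSMB, 161 for PSMC and 74.6 for PSMD, although the proteins of the core are built in at equal number. Shorter transcripts had higher FPKM (Spearman's rho of length and mean FPKM -0.51 across 43 genes, lengths of 793 to 7134 bases recovered from the values). Genes are not independent replicates, and FPKM of members differing in length share this dependence. Level and change were only weakly related across the same genes (rho 0.21).

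**Figure D2:**
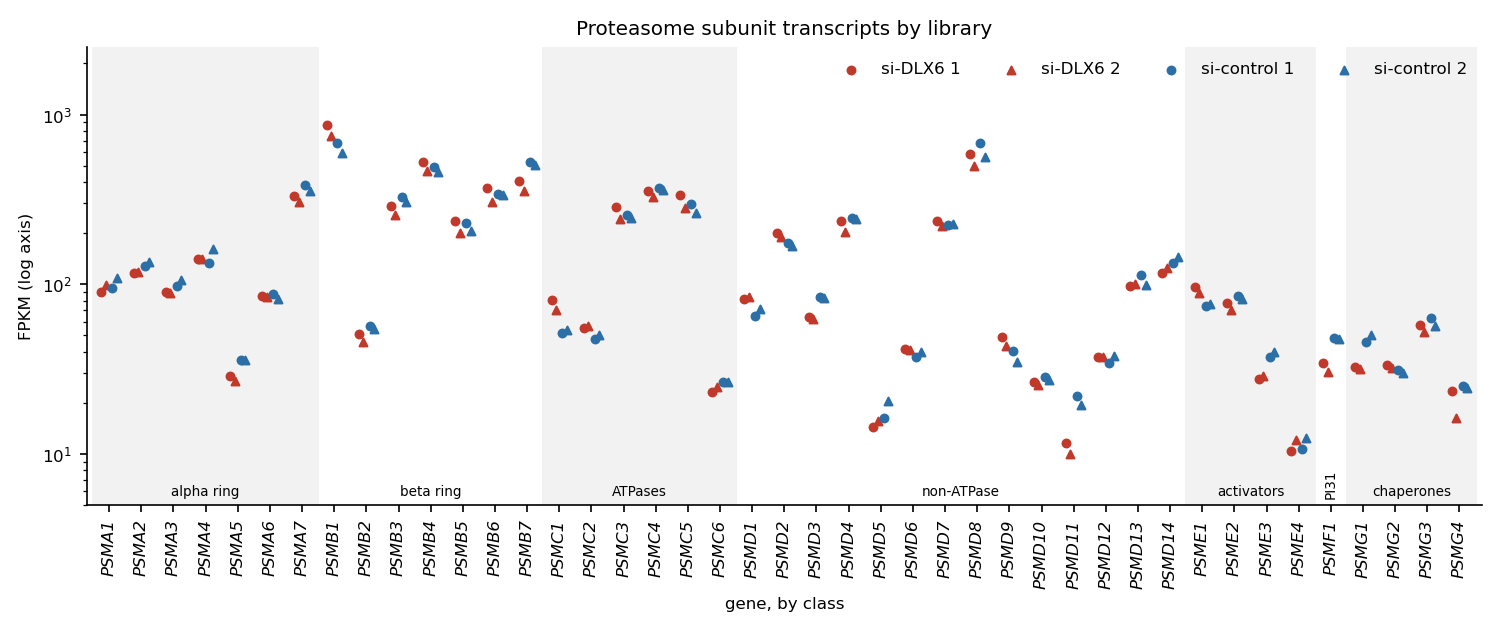
FPKM of each tested proteasome gene in the si-DLX6 and si-control libraries on a log axis, 1 point per library, by class. Levels run from 9.96 FPKM for *PSMD11* to 870 FPKM for *PSMB1*, and for most genes the points of the groups lie close together.

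The alpha ring genes did not pass the test in either direction: of 8, 7 were tested, and *PSMA8*, a testis form, was at 0 in all libraries. Their log2 differences ran from -0.35 for *PSMA5* to 0.00105 for *PSMA6*, and in 4 of 7 both si-DLX6 libraries lay below both si-control libraries, as in 27.9% of all genes. *PSMA5* had 28.9 and 27.0 FPKM in si-DLX6, against 36.0 and 35.6 FPKM in si-control. Its groups were well apart, but its log2 difference of -0.35 ± 0.10 (SE) had an adjusted p of 0.056 in limma. That p was 0.0475 under median-of-ratios scaling and 0.0291 with limma-voom on the recovered reads, but 0.0713 under upper-quartile scaling, 0.0603 with a pseudocount of 0.1, 0.0941 without the filter on low values and 0.117 to 0.221 on leaving out 1 library.

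Of the 3 catalytic beta subunits, which cut after different kinds of residue, the trypsin-like subunit fell and the other two had differences near 0. *PSMB7* (GRCh38 chromosome 9, 124353466 to 124415444, minus strand), the trypsin-like subunit, had 408 and 353 FPKM in si-DLX6, against 523 and 502 FPKM in si-control. Both si-DLX6 libraries were lower, at 74.3% of the si-control mean. The log2 difference was -0.43 ± 0.12 (SE; adjusted p 0.047, limma). This call was narrow: it was lost on leaving out any 1 library (adjusted p 0.0525 to 0.185) and under median-of-ratios or upper-quartile scaling (0.0655 and 0.0943). *PSMB5*, the chymotrypsin-like subunit, had 234 and 199 FPKM in si-DLX6, against 231 and 206 FPKM in si-control. *PSMB6*, the caspase-like subunit, had 371 and 307 FPKM in si-DLX6, against 340 and 335 FPKM in si-control. The si-DLX6 libraries of both genes lay on either side of the si-control libraries, and their 95% intervals on the log2 scale were -0.30 to 0.28 for *PSMB5* and -0.30 to 0.29 for *PSMB6*. Whether *PSMB7* differs from these in its response was not tested.

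The structural beta subunits did not pass the test. *PSMB1*, the most abundant member, had 870 and 751 FPKM in si-DLX6, against 678 and 593 FPKM in si-control, and the groups did not overlap (log2 difference 0.35 ± 0.13 SE, adjusted p 0.114, limma). *PSMB2*, *PSMB3* and *PSMB4* had log2 differences of -0.19, -0.22 and 0.06. *PSMB11*, a thymus form, was not tested: it had 0 and 1 read in si-DLX6 and 2 and 0 reads in si-control.

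Of the 6 ATPases, which form a single ring and are each present once in it, *PSMC1* rose and the other 5 did not pass the test. *PSMC1* (GRCh38 chromosome 14, 90256495 to 90275429, plus strand) had 81.2 and 70.8 FPKM in si-DLX6, against 51.8 and 53.4 FPKM in si-control. Both si-DLX6 libraries were higher, with a log2 difference of 0.52 ± 0.11 (SE; adjusted p 0.022, limma). Reads of this gene cannot be separated safely from those of its processed copies: 12 copies listed in the table held 5478 and 4754 reads in si-DLX6 and 4706 and 3855 in si-control, while *PSMC1* itself held 675 and 599 reads in si-DLX6 and 496 and 410 in si-control. The copies therefore took 89.6% of the summed reads, most of them in *PSMC1P1* (317 and 270 FPKM in si-DLX6, 235 and 238 FPKM in si-control). With the reads of the copies added, the *PSMC1* log2 difference was 0.32 and the adjusted p 0.117, so the only rise among the members did not pass with the reads of gene and copies summed. Whether reads were assigned to the wrong copy was not tested. The call was also lost on leaving out any 1 library other than si-DLX6 replicate 2 (adjusted p 0.0305 to 0.0885).

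*PSMC2* had 54.9 and 56.9 FPKM in si-DLX6, against 47.3 and 50.1 FPKM in si-control. For *PSMC3* the values were 286 and 244 FPKM in si-DLX6 and 255 and 246 FPKM in si-control. *PSMC4* had 356 and 327 FPKM in si-DLX6, against 371 and 357 FPKM in si-control. Thus *PSMC2* was somewhat higher and *PSMC4* somewhat lower in both si-DLX6 libraries, while *PSMC3* overlapped between groups. *PSMC5* had 336 and 280 FPKM in si-DLX6 and 297 and 264 FPKM in si-control, again with overlap. *PSMC6* had 23.2 and 24.8 FPKM in si-DLX6, against 26.7 and 26.6 FPKM in si-control. Processed copies of *PSMC6* held 50.0% of the reads summed over gene and copies. The log2 differences of these 5 ATPases lay between -0.14 for *PSMC6* and 0.20 for *PSMC2*.

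Among the 14 PSMD genes, 2 fell, both encoding scaffold subunits of the lid, the part of the regulatory particle that holds the deubiquitinase. *PSMD11* (GRCh38 chromosome 17, 32444261 to 32483318, plus strand), the human Rpn6, which clamps the regulatory particle to the core, had 11.7 and 9.96 FPKM in si-DLX6, against 22.1 and 19.3 FPKM in si-control. These values rested on 491 and 427 reads in si-DLX6 and 1070 and 751 reads in si-control. Both si-DLX6 libraries lay far below both si-control libraries, at 52.3% of the si-control mean. The log2 difference was -0.88 ± 0.13 (SE; adjusted p 0.010, limma), the only member's change that passed on leaving out each of the 4 libraries (adjusted p 0.0167 to 0.0353). Without the filter on low values, its adjusted p was 0.064.

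*PSMD3* (GRCh38 chromosome 17, 39980797 to 39997960, plus strand), the human Rpn3, had 64.3 and 62.6 FPKM in si-DLX6, against 84.6 and 83.1 FPKM in si-control. The replicates lay close together and the groups were clearly apart, at 75.6% of the si-control mean, with a log2 difference of -0.40 ± 0.09 (SE; adjusted p 0.030, limma). Leaving out any 1 library ended the call (adjusted p 0.0873 to 0.116). Its promoter window is the one shown above with the antioxidant response element letters on both strands. *PSMD14*, the deubiquitinase of the lid, had 116 and 125 FPKM in si-DLX6, against 133 and 144 FPKM in si-control. It was lower in both si-DLX6 libraries but did not pass the test (log2 difference -0.20).

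The other 11 PSMD genes ran from -0.26 for *PSMD5* to 0.29 for *PSMD9*, and none passed. Both of these encode chaperones that help assemble the base of the regulatory particle, as does *PSMD10*, with a log2 difference of -0.10. The regulatory particle counts, medians and sums given here include these chaperone genes. Without them the median of the PSMD genes was also -0.10. *PSMD1* and *PSMD2*, the large scaffold subunits of the base, were above si-control in both si-DLX6 libraries, with log2 differences of 0.28 and 0.19. *PSMD4*, a ubiquitin receptor, was lower in both, with -0.15. The lid subunits *PSMD6*, *PSMD7*, *PSMD8*, *PSMD12* and *PSMD13* had 0.10, 0.02, -0.19, 0.04 and -0.10.

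Of the 4 activator genes, 1 fell. *PSME3* (GRCh38 chromosome 17, 42824385 to 42843758, plus strand), which encodes the nuclear activator PA28 gamma, had 27.7 and 28.6 FPKM in si-DLX6, against 37.2 and 40.0 FPKM in si-control. Both si-DLX6 libraries were lower, with a log2 difference of -0.44 ± 0.10 (SE; adjusted p 0.029, limma). Leaving out any 1 library ended this call as well (adjusted p 0.0707 to 0.13). *PSME1* and *PSME2* encode the partner subunits of the interferon-inducible activator and lay on opposite sides of 0, although neither passed. *PSME1* had 95.6 and 88.9 FPKM in si-DLX6, against 74.3 and 76.2 FPKM in si-control, with a log2 difference of 0.29. *PSME2* had 77.6 and 70.7 FPKM in si-DLX6, against 84.8 and 82.3 FPKM in si-control, with -0.17. *PSME4*, the activator PA200, had 10.4 and 12.0 FPKM in si-DLX6 and 10.6 and 12.5 FPKM in si-control, so its groups overlapped.

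The inhibitor gene *PSMF1* (GRCh38 chromosome 20, 1113263 to 1189415, plus strand) fell. It encodes PI31, named for blocking the core particle in the test tube. It had 34.1 and 30.2 FPKM in si-DLX6, against 48.5 and 47.7 FPKM in si-control. Both si-DLX6 libraries were lower, at 66.9% of the si-control mean, with a log2 difference of -0.57 ± 0.11 (SE; adjusted p 0.017, limma). The call held on leaving out si-DLX6 replicate 1 and was lost on leaving out any of the other 3 libraries (adjusted p 0.0292 to 0.0678).

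The 4 core assembly chaperones act in pairs, *PSMG1* with *PSMG2* and *PSMG3* with *PSMG4*, on the forming alpha ring, and only *PSMG1* passed the test. *PSMG1* (GRCh38 chromosome 21, 39174769 to 39183851, minus strand) had 32.3 and 31.5 FPKM in si-DLX6, against 45.6 and 50.2 FPKM in si-control. Its log2 difference was -0.57 ± 0.10 (SE; adjusted p 0.015, limma), at 66.6% of the si-control mean. It was lost on leaving out si-DLX6 replicate 2 or si-control replicate 2 (adjusted p over the 4 fits 0.0316 to 0.0659). Its partner *PSMG2* had 33.3 and 32.0 FPKM in si-DLX6, against 31.3 and 29.8 FPKM in si-control. The difference between the partners in their response was not tested. *PSMG3* had 57.5 and 52.2 FPKM in si-DLX6 and 62.8 and 56.7 FPKM in si-control, with overlap. *PSMG4* had 23.3 and 16.4 FPKM in si-DLX6, against 25.3 and 24.5 FPKM in si-control, with the si-DLX6 replicates far from each other.

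**Figure D3:**
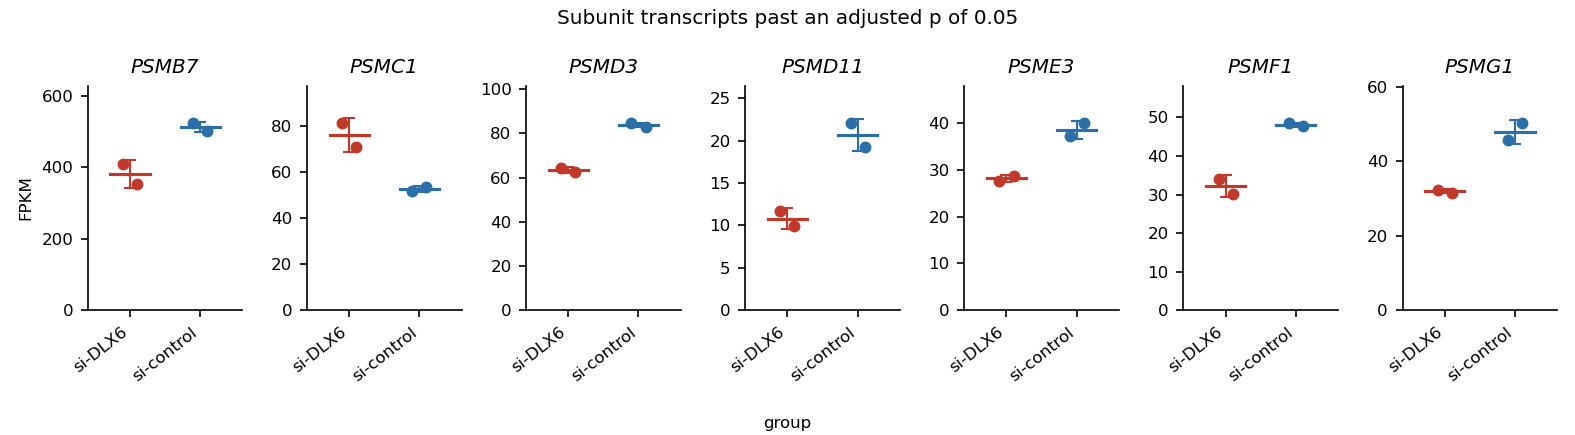
FPKM in each si-DLX6 and si-control library (points) with the group means (horizontal lines) and SD (whiskers, n = 2 each) for the 7 proteasome genes that passed the test. In each panel the points of the groups do not overlap; *PSMC1* is the only one higher in si-DLX6.

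The summed FPKM of all members overlapped between the groups. All members together held 6964 and 6262 FPKM in si-DLX6 and 6969 and 6630 FPKM in si-control. Core particle genes summed to 3632 and 3240 FPKM in si-DLX6 and 3606 and 3435 FPKM in si-control, and regulatory particle genes to 2940 and 2659 FPKM in si-DLX6 and 2943 and 2775 FPKM in si-control. The ratio of core to regulatory particle sums was 1.24 and 1.22 in si-DLX6 and 1.23 and 1.24 in si-control. The groups overlapped in each of these sums and in the ratio. They did not overlap in the sums of the PSMA genes (883 and 865 FPKM in si-DLX6, against 960 and 981 FPKM in si-control) or of the PSME, PSMF and PSMG genes (391.9 and 362.6 FPKM in si-DLX6, against 420.5 and 419.8 FPKM in si-control). As a share of all FPKM, the members held 1.179% and 1.132% in si-DLX6, against 1.203% and 1.182% in si-control, with both si-DLX6 values lower by a small margin. Sums of FPKM are led by the most abundant genes and weigh *PSMD11* hardly at all. They also leave out the processed copies, which for *PSMC1* held 89.6% of the reads summed over gene and copies. *PSMC1P1* alone had 317 and 270 FPKM in si-DLX6, against 235 and 238 FPKM in si-control. Whether the groups overlap in the regulatory particle sum and in the ratio with copies included was not tested.

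Genes that work beside the proteasome were described from lists of related factors, whose counts stand against the 10.2% of all genes that rose and the 9.49% that fell. Of 6 tested factors that carry ubiquitinated proteins to the proteasome, 2 fell and 0 rose, with a median log2 difference of -0.43. The shuttle factor gene *RAD23B*, also a part of the nucleotide excision repair damage sensor, had 10.0 and 9.60 FPKM in si-DLX6, against 45.9 and 51.7 FPKM in si-control. That is the largest difference of any gene in these lists, with a log2 difference of -2.20 and an adjusted p of 0.002 (limma). *UBQLN4*, another shuttle factor, had 11.6 and 11.3 FPKM in si-DLX6, against 20.0 and 19.3 FPKM in si-control (-0.73, adjusted p 0.010, limma).

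Of 10 subunits and factors that bind the proteasome but carry other names, 2 rose and 0 fell, with a median of 0.02. Both encode zinc finger proteins that bind the proteasome: *ZFAND5* had 14.2 and 15.6 FPKM in si-DLX6, against 8.40 and 9.14 FPKM in si-control, and *ZFAND2A* had 20.0 and 18.5 FPKM in si-DLX6, against 11.9 and 10.3 FPKM in si-control. Their log2 differences were 0.70 and 0.75, with adjusted p of 0.015 and 0.013 (limma). Without the filter on low values neither passed, with an adjusted p of 0.0647 for each (limma). The call of *ZFAND5* was lost without si-control replicate 1 (adjusted p 0.0579) or without si-DLX6 replicate 2 (0.0617). The ubiquitin receptor gene *ADRM1*, with a log2 difference of -0.05, and *SHFM1*, which encodes the small lid subunit SEM1, with 0.18, did not pass. *POMP*, the chaperone of late core particle assembly, had 58.3 and 60.6 FPKM in si-DLX6, against 48.4 and 48.9 FPKM in si-control, and did not pass either (0.28, adjusted p 0.078, limma).

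Of the 3 immunoproteasome subunits, which replace the catalytic beta subunits in immune cells and after interferon, *PSMB10* rose and none fell. It had 49.8 and 45.9 FPKM in si-DLX6, against 33.6 and 27.9 FPKM in si-control (log2 difference 0.63, adjusted p 0.019, limma), while its constitutive counterpart is *PSMB7*, which was lower. The *PSMB10* call was lost under median-of-ratios scaling, where the log2 difference was 0.53, and without si-control replicate 2 or si-DLX6 replicate 1. Without the filter on low values, the adjusted p of *PSMB10* was 0.0838 (limma). *PSMB8* and *PSMB9* had log2 differences of 0.37 and -0.004 and did not pass.

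Of 10 regulators of proteasome gene transcription, 2 rose and 0 fell, with a median of 0.16. *NFE2L2* had 40.0 and 47.5 FPKM in si-DLX6, against 27.3 and 32.7 FPKM in si-control (log2 difference 0.53, adjusted p 0.040, limma). *KEAP1*, whose protein marks NFE2L2 for degradation, had 71.1 and 72.8 FPKM in si-DLX6, against 58.3 and 48.7 FPKM in si-control (0.43, adjusted p 0.047, limma). Both calls ended under median-of-ratios scaling (adjusted p 0.0574 and 0.134), and both also ended on leaving out si-DLX6 replicate 2 (0.149 and 0.138). The *NFE2L2* call was lost too without si-control replicate 1 (0.143). The *KEAP1* call was further lost with a pseudocount of 0.1 (0.0533), under upper-quartile scaling (0.106), with limma-voom (0.0535), without si-control replicate 2 (0.206) and without si-DLX6 replicate 1 (0.108). *NFE2L1* itself had 74.6 and 74.7 FPKM in si-DLX6, against 64.5 and 63.6 FPKM in si-control, and did not pass (0.22, adjusted p 0.139, limma).

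Of 10 genes of VCP, the ATPase that pulls ubiquitinated proteins out of complexes, and its cofactors, *FAF2* rose (0.45, adjusted p 0.028, limma) and none fell, with a median of 0.18. The *FAF2* call ended on leaving out any 1 library.

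Relatives of the proteasome lid and another large protein machine served for comparison. Of the 9 tested genes of the COP9 signalosome, whose subunits resemble those of the lid, *GPS1* and *COPS3* fell (-0.58 and -0.82) and 0 rose, with a median of -0.18. Of the 8 genes of the cytosolic chaperonin TRiC, *CCT2*, *CCT5*, *CCT6A* and *CCT8* fell (-1.13, -0.51, -0.65 and -0.59) and 0 rose, with a median of -0.39. Over all genes, 9.49% fell. Leaving out 1 library ended the calls of *GPS1* (without si-DLX6 replicate 2 or si-control replicate 1), *CCT5* (without any but si-DLX6 replicate 2) and *CCT8* (without si-control replicate 2, adjusted p 0.0502). These are counts and medians beside those of the proteasome genes, and the difference between the lists was not tested.

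**Figure D4:**
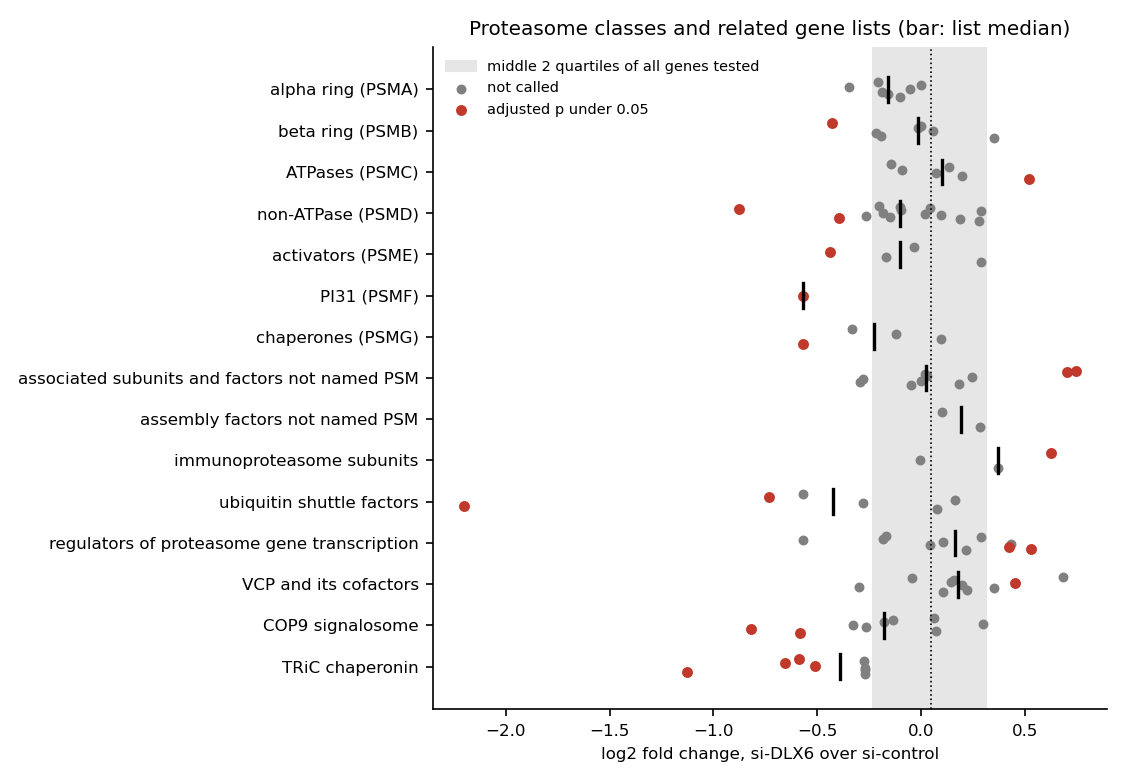
Log2 differences (si-DLX6 minus si-control) of each tested gene (points, red where the gene passed the test) and the list median (vertical bar) for the proteasome classes and the related lists, with the median of all genes tested as a dotted line at 0.045 and their middle 2 quartiles shaded. *RAD23B* at -2.20 lies lowest, and all 8 TRiC genes lie below 0.

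How firmly each call stands differs between the 7 members. *PSMD11* passed under both other scalings, with limma-voom on recovered reads and on leaving out each library. *PSMD3*, *PSME3*, *PSMF1* and *PSMG1* passed under both scalings and limma-voom. On leaving out 1 library, the calls of *PSMD3* and *PSME3* were lost in every fit and those of *PSMF1* and *PSMG1* in some. *PSMB7* and *PSMC1* were lost under both scalings. Without the filter on low values, none of the 7 passed. Median-of-ratios scaling shifted the median of all genes to -0.03, against 0.045 as deposited, and the members' median to -0.19, so the members' median stayed 0.145 to 0.159 below that of all genes under the scalings and limma-voom. On leaving out 1 library this gap ran from 0.083 (without si-DLX6 replicate 2) and 0.090 (without si-control replicate 1) to 0.203 (without si-DLX6 replicate 1). Under median-of-ratios scaling 0 members rose and 6 fell, and over all genes 1088 rose and 1816 fell, against 1575 and 1471 as deposited.

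**Figure D5:**
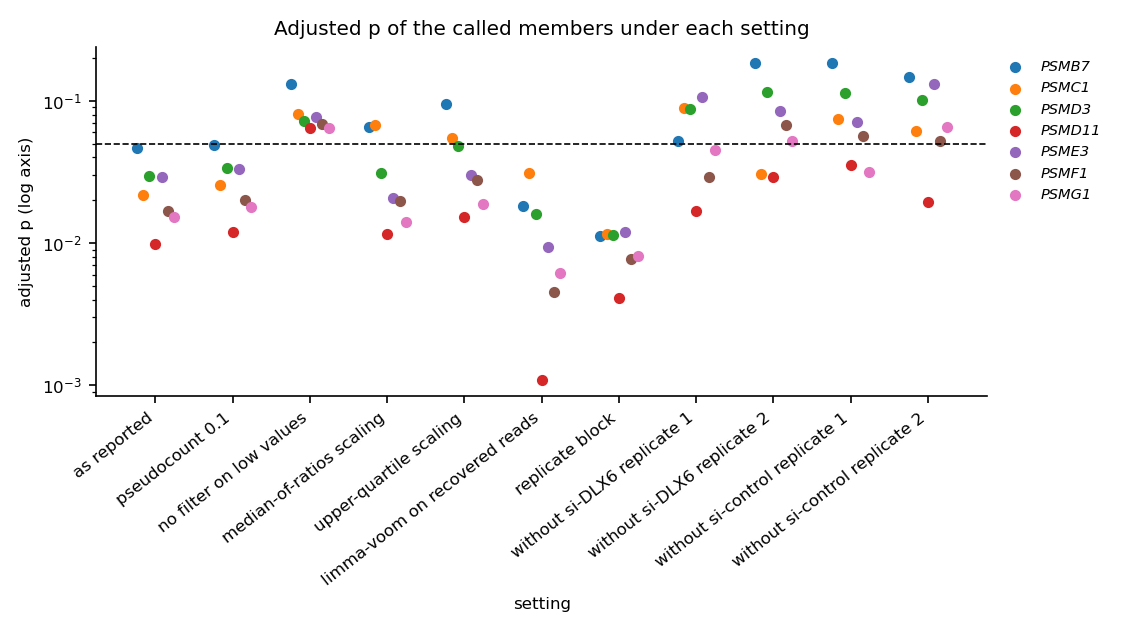
Adjusted p (limma, log axis) of the 7 proteasome genes that passed, in the test as reported and under each alternative, with the threshold of 0.05 as a dashed line. *PSMD11* crosses the line only without the filter on low values (0.064).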

How the data were processed

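The authors deposited 1 table of 51136 rows with 1 column per library. Its header names no unit, and the deposited values were taken as FPKM (reads per gene length and library total). Per the labels' protocols, libraries were made from 1.3 µg of total RNA with a SMARTER mRNA-Seq kit. The sources used here do not give the aligner, the counter or the strand use. Per the submitters' processing notes the builds are GRCm38 and mm10 (mouse), while the rows carry human symbols, so no coordinates come from the file: positions are from GENCODE release 29 (GRCh38) and promoter windows from RefSeq (GRCh38.p14).

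Whole reads were recovered from the steps of the values for all 28637 rows above 0 (within 1e-05 reads), 1496 of them after restoring a shared factor; 98.0% to 98.1% of each library's total lay in genes. The design foresaw this unit: log2(FPKM + 1) values of the 15504 genes that reached 1 FPKM in 2 or more libraries were fitted with limma-trend (limma 3.58.1, R 4.3.3), with group as the only term, Benjamini-Hochberg adjustment over all these genes and a threshold of 0.05. SE is limma's moderated standard error. The script was tested on simulated data. limma-voom on the recovered reads, median-of-ratios and upper-quartile scaling, another pseudocount (0.1), no filter, a replicate block, a stricter threshold (0.01) and leaving out each library were tried. With 2 libraries against 2, an exact permutation test of 1 gene cannot go below p = 0.333, so none is given.

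The members and lists were chosen with earlier results of these data known, so no p is adjusted over the list alone and no list is tested. Values in each library are printed for members that passed the test, catalytic subunits, ATPases, *PSMD14* and the PSME, PSMF and PSMG classes. *PSMA5*, *PSMB1* and members given by their difference alone were chosen after their values were seen. From related lists, genes that passed and *POMP*, *ADRM1*, *SHFM1* and *NFE2L1* are named. The result of 1 further list is not reported here.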

Additional observations from a re-analysis of the deposited data

How the results depend on the processing

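With 2 libraries per group the spread rests on few degrees of freedom; each tested member had at least 234 reads per library, and what limits the calls was not tested. Of 43 members 7 passed as reported, 0 of 43 without the filter on low values (11 at an unadjusted p under 0.05; 372 of all genes passed), 14 with a replicate block, 1 at a threshold of 0.01, and 1 to 3 on leaving out 1 library: 3 without si-DLX6 replicate 1, 2 without si-DLX6 replicate 2, 2 without si-control replicate 1 and 1 without si-control replicate 2. Over all genes 3046 passed as reported, 5119 with the replicate block, 658 at 0.01 and 1365 to 1689 on leaving out 1 library. Nothing in the labels says that the replicate numbers mark a shared batch, so group was the only term of the reported fit. The replicate numbers give only 2 pairs, whose deviations from the group means correlate at 0.20. This value does not exclude a shared replicate effect, which was not tested. Other counts of members were 7 with a pseudocount of 0.1, 6 under median-of-ratios scaling, 5 under upper-quartile scaling, 8 with limma-voom and 6 with the reads of processed copies added, an alternative chosen after seeing the data. Median-of-ratios scaling moved the median log2 difference to -0.19 for all members, -0.22 for the core and -0.13 for the regulatory particle; the cause was not tested. Without si-DLX6 replicate 2 the median of the regulatory particle was 0.004.

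Sign changes occurred only in genes that did not pass and lay near 0. Under median-of-ratios scaling the log2 difference was -0.092 for *PSMA6*, -0.035 for *PSMB4*, -0.021 for *PSMC3*, -0.049 for *PSMD12* and -0.075 for *PSMD7*. Under upper-quartile scaling it was -0.040 for *PSMA6* and -0.023 for *PSMD7*, and with limma-voom -0.053 for *PSMA6*, -0.0078 for *PSMD12* and -0.034 for *PSMD7*. With copies added it was -0.032 for *PSMA6*. On leaving out 1 library it ran from -0.197 to 0.085 for *PSMA4*, -0.054 to 0.056 for *PSMA6*, -0.034 to 0.152 for *PSMB4*, -0.130 to 0.102 for *PSMB5*, -0.137 to 0.136 for *PSMB6*, -0.041 to 0.187 for *PSMC3*, -0.028 to 0.113 for *PSMD12*, -0.035 to 0.071 for *PSMD7*, -0.141 to 0.069 for *PSME4* and -0.145 to 0.048 for *ADRM1*.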

Other observations

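Transcripts that overlap or copy proteasome genes are listed in rows of their own. *PSMG3-AS1*, an antisense RNA beside *PSMG3*, had 1.92 and 1.99 FPKM in si-DLX6, against 0.912 and 0.836 FPKM in si-control, with a log2 difference of 0.66 (adjusted p 0.040, limma) on the log2(FPKM + 1) scale, which understates it at this level: the si-DLX6 mean was 223% of the si-control mean. It rested on 117 and 123 reads in si-DLX6 and 64 and 47 reads in si-control. Both si-control values were under 1 FPKM, and whether the call holds under the other settings was not checked. *PSMG3* itself overlapped between the groups, and without knowing strand use the reads of the pair cannot be told apart. *PSMA3-AS1* had a log2 difference of 0.46 and did not pass (adjusted p 0.0676, limma). Besides *PSMC1* and *PSMC6*, processed copies took 24.7% of the summed reads for *PSMA6*, 19.2% for *PSME2*, 9.59% for *PSMD12* and 9.34% for *PSMD2*. The copy *PSMC1P1* was higher in both si-DLX6 libraries, like *PSMC1*, with a log2 difference of 0.30 that did not pass (adjusted p 0.110, limma).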
